A study of Mus musculus with 6 samples.

Results

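The constitutive proteasome subunits were followed here as 32 genes, 14 of the core particle (Psma1 to Psma7 and Psmb1 to Psmb7) and 18 of the regulatory cap (Psmc1 to Psmc6, 11 Psmd genes and Adrm1). They were listed by name as subunits of the particle, with no threshold on a measured value though with earlier results of these data known, and found on the arrays through the RefSeq accession that each probe targets. All 32 were read, by 38 probes, and each was well above background on all 6 arrays, among 21214 genes tested in all. The samples were kidney RNA of newborn mice taken about 6 hours after birth, 1 single-colour array per neonate, with 3 neonates labelled USP10 KO and 3 labelled USP10 WT. All 6 are labelled male. Usp10 encodes a deubiquitinating enzyme. The allele, the part of the gene that was removed, the strain and any driver of the deletion are not stated in the sources at hand. The comparison asks whether kidney transcripts differ between the genotypes. Values are log2 signals after subtraction of the 75th percentile of the array.

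The proteasome is the large protease that breaks down proteins marked with ubiquitin chains. Its core is a stack of rings in which outer alpha subunits gate the entrance and inner beta subunits carry the proteolytic sites. The cap binds the ubiquitin chain, removes it, unfolds the substrate with a ring of ATPases and feeds it into the core. Every cell type depends on it, the kidney epithelium included. When proteasome activity is short, the transcription factor encoded by Nfe2l1 is known to raise the subunit genes together through antioxidant response elements.

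The signal of Usp10 itself went against the labels. It stood at 3.64, 3.37 and 3.56 on the arrays labelled KO and at 3.01, 3.13 and 2.95 on those labelled WT, a difference of 0.49 ± 0.16 (SE, n = 3 against 3, limma adjusted p = 0.416). Its single probe may lie outside the deleted part, in which case it checks nothing, so groups are called by their labels throughout. WT replicates 1 and 2 also gave signal of Xist, the RNA of the inactive X chromosome of females, above background, and WT replicate 2 gave no signal above background of Ddx3y, Eif2s3y or Uty, which lie on the Y chromosome, against the label male. The arrays fell into 2 scan times per the file headers. Scan 1 held KO replicates 1 and 2 with WT replicates 2 and 3, and scan 2 held KO replicate 3 and WT replicate 1. The share of spots well above background was 64.4% to 73.9% per array. KO replicate 2 had 39.1% of its signal in its brightest 1% of spots, and the other 5 arrays had 29.4% to 31.9%. All 10 kidney epithelium markers listed, among them Umod, Aqp2 and Nphs1, were above background on all 6 arrays. The summed signals of liver markers (21.6 to 23.9 against 15.2 to 20.2) and adrenal cortex markers (0.266 to 0.426 against 0.183 to 0.245) were higher on the arrays labelled KO without overlap, in linear signal relative to the 75th percentile. In each list 1 gene carried the difference between the sums, Afp (0.41) in liver and Hsd3b1 (1.78) in adrenal cortex. In each, 2 of 3 tested markers had a negative difference (Alb -1.59, Ttr -0.66, Cyp21a1 -0.09, Cyp11b1 -0.61). The summed signals of proliferation genes were 25 to 36.9 against 35.4 to 42.2, with 6 of 6 differences negative. Their part in the results was not tested. With 3 arrays per group, the number of arrays limits the precision of every value.

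No subunit gene passed the test between the arrays labelled KO and WT. limma (two-sided, Benjamini-Hochberg over 21214 genes, threshold 0.05) called 0 of 14 core and 0 of 18 cap members, with a lowest adjusted p of 0.462. Over all genes tested 0.0801% were called in either direction, 0.0189% higher and 0.0613% lower. At an unadjusted p under 0.05, 1 member was lower, Psmd8, and 0 were higher, where the shares over all genes tested were 4.23% and 6.15%, or 10.4% in either direction. The differences, arrays labelled KO minus arrays labelled WT, lay between -0.27 and 0.32 in the core, with a median of 0.07, and between -0.46 and 0.32 in the cap, with a median of 0.06. The median over all genes tested was 0.03. A p that misses the threshold does not show that the groups are alike, so the intervals are given too. For 30 of the 32 members the 95% interval of the difference lay wholly inside 1 on the log2 scale in either direction, which is a 2-fold change. The exceptions were Psmc5, with an interval from -1.05 to 0.37, and Adrm1, with one from -1.68 to 2.32. In bulk tissue, fewer cells of a type and less RNA per cell cannot be told apart.

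**Figure D1:**
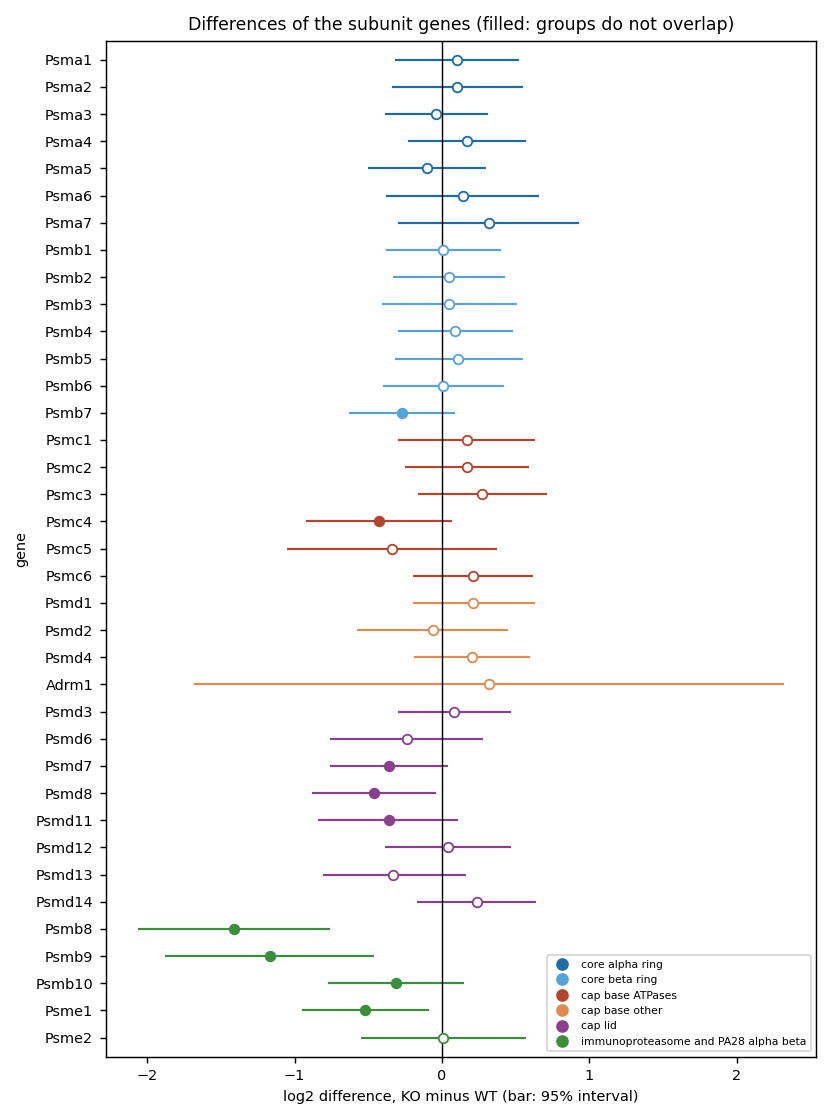
Log2 difference, arrays labelled KO minus arrays labelled WT, of the 32 constitutive subunit genes and of the 5 immunoproteasome and PA28 genes, with the 95% interval as a bar (3 arrays against 3). Filled points mark genes whose 2 groups of arrays do not overlap, 5 constitutive genes and 4 of the others; Adrm1 has the widest interval, from -1.68 to 2.32.

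Without a call, the direction of small differences rested on the scaling. In the main scaling 11 of 32 members had a negative difference, 3 in the core and 8 in the cap, where 46.7% of all genes tested had one. With quantile normalization the count was 21, 11 in the core and 10 in the cap. With array median scaling it was 13, with normexp correction before quantile normalization 21, and with normexp correction before the 75th percentile 17. In the last setting the median of all genes moved from 0.03 to 0.14. The groups of arrays did not overlap for 5 members, Psmb7, Psmc4, Psmd7, Psmd8 and Psmd11, all lower on the arrays labelled KO, and for 0 members with KO above. Over all genes tested 8.1% lay below in this way and 10.1% above. These same 5 did not overlap in each other scaling run, where Psma3 joined them with normexp and the 75th percentile.

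The alpha subunits form the outer rings of the core and carry no proteolytic site. Among the 7 alpha genes, 5 had a positive and 2 a negative difference, with a median of 0.10. The smallest unadjusted p were those of Psma7 and Psma4. Psma7 stood at 4.09, 4.30 and 3.62 on the arrays labelled KO and at 3.35, 4.11 and 3.60 on those labelled WT, so the groups overlapped, and WT replicate 1 was the lowest array. The difference of Psma7 was 0.32 ± 0.26 (SE, limma adjusted p = 0.660), and between 0.15 (without WT replicate 1) and 0.53 (without WT replicate 2) when single arrays were left out. Psma4 gave 2.05, 2.28 and 1.98 against 1.79, 2.08 and 1.93, also overlapping, with a difference of 0.17 ± 0.17 (adjusted p = 0.706), or 0.08 without KO replicate 2. The most even alpha gene was Psma3, which stayed between 4.79 and 4.91 on all 6 arrays.

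The beta genes were flatter, with differences between -0.27 and 0.11 and a median of 0.05. Their members Psmb5, Psmb6 and Psmb7 encode the catalytic subunits beta 5, beta 1 and beta 2, which cut after hydrophobic, acidic and basic residues. Psmb5 stood at 4.50, 4.75 and 4.84 on the arrays labelled KO and at 4.76, 4.65 and 4.35 on those labelled WT, a difference of 0.11 ± 0.19 (SE, limma adjusted p = 0.831). The groups overlapped, with the highest Psmb5 value on KO replicate 3 and the lowest on WT replicate 3. Psmb6 gave 5.43, 5.43 and 5.13 against 5.16, 5.47 and 5.33, with a difference of 0.01 ± 0.17 (adjusted p = 0.988). Psmb7 gave -0.93, -1.07 and -0.91 against -0.68, -0.79 and -0.62. All 3 values of Psmb7 labelled KO lay below all 3 labelled WT, by 0.27 ± 0.15 on average, which did not pass (adjusted p = 0.541). Within scan 1 the difference of Psmb7 was -0.30 and within scan 2 -0.23. The non-catalytic beta genes Psmb1, Psmb2, Psmb3 and Psmb4 had differences between 0.01 and 0.09, with overlapping groups in each.

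With the brighter probe of each gene, the class medians differed more within the cap than within the core. The base, which sits on the core, is built on a ring of 6 ATPases, Psmc1 to Psmc6, that unfold the substrate. Their median difference was 0.17, with 4 positive and 2 negative. Psmc4 stood at 1.04, 1.12 and 0.80 on the arrays labelled KO and at 1.31, 1.15 and 1.78 on those labelled WT. The groups of Psmc4 did not overlap, but KO replicate 2 and WT replicate 2 nearly met. Its difference was -0.43 ± 0.21 (SE, limma adjusted p = 0.511), and -0.24 without WT replicate 3. Psmc3 went the other way, at 4.27, 4.55 and 4.51 against 4.30, 4.31 and 3.90, overlapping, with a difference of 0.27 ± 0.19 (adjusted p = 0.592), or 0.14 without WT replicate 3.

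The other base members are the scaffolds Psmd1 and Psmd2 and the ubiquitin receptors Psmd4 (Rpn10) and Adrm1 (Rpn13). Psmd1 gave 3.82, 3.89 and 4.11 against 3.91, 3.72 and 3.55, a difference of 0.21 ± 0.18 (SE, limma adjusted p = 0.655). Psmd4 gave 3.71, 3.83 and 3.79 against 3.58, 3.76 and 3.38, a difference of 0.20 ± 0.17 (adjusted p = 0.656). Both overlapped, and in both WT replicate 3 was the lowest array, without which the differences were 0.13 and 0.11. Psmd2 differed by -0.06 ± 0.22, and Adrm1, described further on, by 0.32 ± 0.86.

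The lid covers the side of the base and holds Psmd14 (Rpn11), the subunit that cuts the ubiquitin chain off the substrate. Of its 8 genes 5 had a negative difference and 3 a positive one, with a median of -0.28, against 0.17 in the ATPases and 0.21 in the other base members. This contrast between classes of genes on the same arrays was described, not tested. It also rests on the brighter probe of each gene. Dimmer probes of Psmc1, Psmc2 and Psmc3 gave -0.03, 0.11 and -0.24, against 0.17, 0.17 and 0.27 for the brighter. With the dimmer probes the ATPase median is thus lower. In the lid, the dimmer probe of Psmd12 gave 0.21, against 0.04. The lid genes with negative differences had means of 1.16 (Psmd8) to 2.77 (Psmd6) on the arrays labelled WT. Psmd3 and Psmd12, with positive ones, were brighter, at 3.52 and 3.87, but Psmd14, also positive, was dimmer, at 0.23. Outside the lid, Psmc4 (1.41) and Psmb7 (-0.70) were also dim with negative differences, whereas Psmc5 (3.26) was bright with one. The part of brightness was not tested. Psmd8, a structural subunit of the lid, stood at 0.88, 0.64 and 0.59 on the arrays labelled KO and at 1.12, 0.99 and 1.37 on those labelled WT. All 3 values of Psmd8 labelled KO were below all 3 labelled WT, by 0.46 ± 0.18 on average (SE, limma adjusted p = 0.462, and 0.257 with scan as a block). Within scan 1 the difference of Psmd8 was -0.42 and within scan 2 -0.53. Psmd7 gave 1.91, 1.93 and 1.79 against 2.12, 2.13 and 2.47, again without overlap, with a difference of -0.36 ± 0.17 (adjusted p = 0.50, and 0.272 with scan as a block). Psmd11 gave 0.99, 1.01 and 0.95 against 1.24, 1.09 and 1.72, with a difference of -0.36 ± 0.20 (adjusted p = 0.535). Psmd6 and Psmd13 had differences of -0.24 and -0.33 with overlapping groups. Psmd14 had a positive one, 0.24 ± 0.17 (adjusted p = 0.612), as did Psmd3 (0.08) and Psmd12 (0.04).

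WT replicate 3 set the size of many of these differences. It was the highest of the 6 arrays for 9 members and the lowest for 13, where over all genes tested it was the highest for 21.9% and the lowest for 24.3%. It was the highest for Psmb1, Psmb7, Psmc4, Psmc5, Psmd6, Psmd7, Psmd8, Psmd11 and Psmd13, that is, for all 5 members whose groups did not overlap. It was the lowest for Psmc1, Psmc2, Psmc3, Psmc6, Psmd1 and Psmd4 of the base. The same held for Psma1, Psma2, Psma5, Psmb4 and Psmb5 of the core and for Psmd3 and Psmd14 of the lid. The lid genes stood at a median of 0.43 above their own 6-array means on this array and the ATPases at 0.29 below, a deviation of -0.29. Without WT replicate 3 limma called 0 members, 0 had an unadjusted p under 0.05, and the lowest adjusted p was 0.920. Leaving it out kept the sign, at -0.24 for Psmb7, -0.24 for Psmc4, -0.25 for Psmd7 and -0.35 for Psmd8. On all 6 arrays these were -0.27, -0.43, -0.36 and -0.46. Groups that do not overlap on 6 arrays cannot overlap on fewer, so all 5 members stayed apart. Against WT replicate 3 alone, the only array labelled WT whose sex-linked signals match its label, 0 members were called and 2, Psmc4 and Psmd11, had an unadjusted p under 0.05. That fit assumes that this single array varies like the others. The differences there were -0.79 for Psmc4, -0.67 for Psmd8 and 0.54 for Psmc3.

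**Figure D2:**
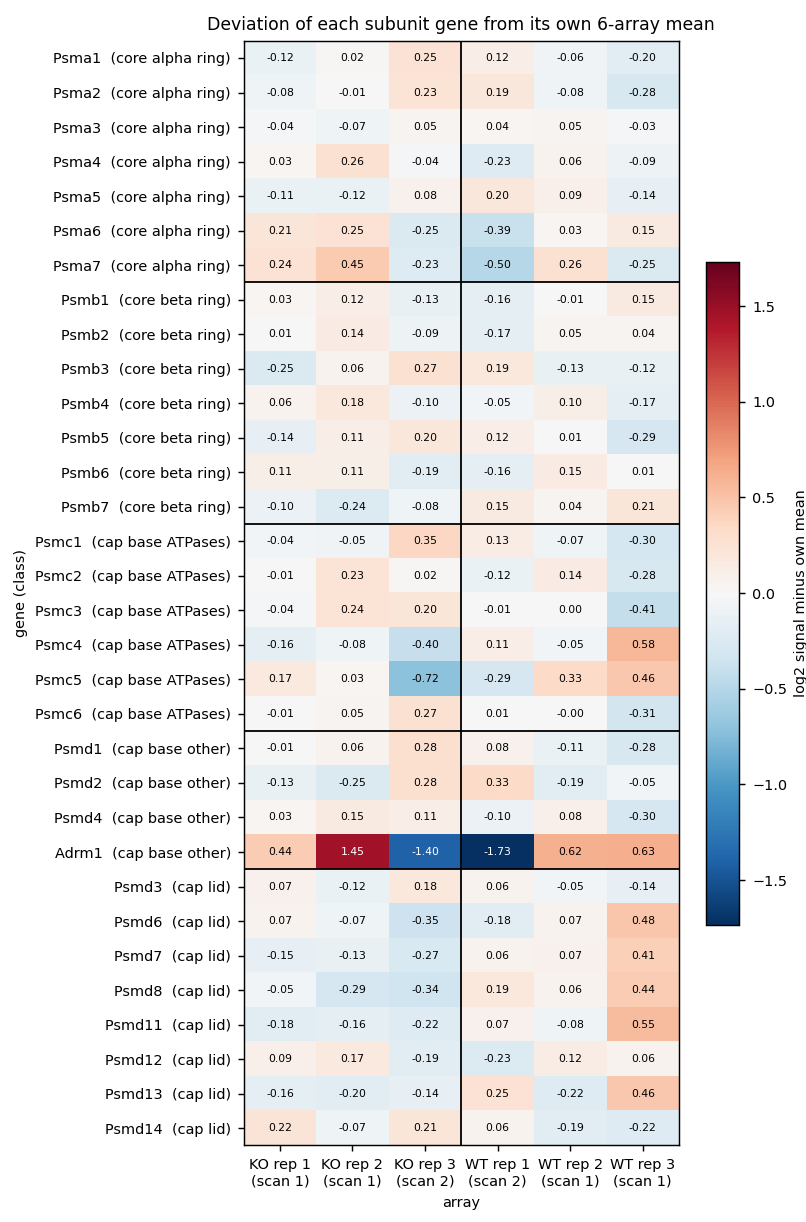
Signal of each of the 32 subunit genes on each array as the deviation from that gene's own 6-array mean (log2, colour scale and printed value), with genes grouped by class and arrays by label, and the scan of each array under its name. WT replicate 3 is high for most lid genes and low for most ATPase genes, and Adrm1 is low on both arrays of scan 2, KO replicate 3 and WT replicate 1.

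The widest spread among the members followed the scan and not the label. Adrm1 stood at 3.10 and 4.11 on the arrays labelled KO of scan 1 and at 3.28 and 3.29 on those labelled WT of scan 1, but at 1.26 (KO replicate 3) and 0.93 (WT replicate 1) on scan 2. Both arrays of scan 2 were thus below all 4 of scan 1, with a scan difference of -2.35 ± 0.27 (SE, limma adjusted p = 0.00675 for the scan term of a fit with label and scan, a term that was tested after its values were seen). Within scans the label difference of Adrm1 was 0.32 and 0.33. Psmc5 behaved alike on a smaller scale. It gave 3.26, 3.12, 3.42 and 3.55 on scan 1 and 2.37 (KO replicate 3) and 2.80 (WT replicate 1) on scan 2, a scan difference of -0.75 ± 0.14 (adjusted p = 0.0253). With scan as a block its label difference of -0.34 had an unadjusted p of 0.0395 and an adjusted p of 0.270.

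These were 2 of 32 members called lower on scan 2, and 0 were called higher, where 6.75% and 2.68% of all genes tested were. Both arrays of scan 2 lay above the other 4 for 7 members and below them for 8, where the shares over all genes tested were 15.5% and 19.4%. The members above were Psma1, Psma2, Psmb3, Psmb5, Psmc1, Psmd1 and Psmd2. With scan as a block limma called 0 members, and 3 had an unadjusted p under 0.05, Psmc5, Psmd7 and Psmd8, all lower on the arrays labelled KO, against 7.25% of all genes tested. Under that rule 0 members were higher, against 10.5%. What in the RNA, labelling or hybridisation separates the scans is not stated in the sources at hand, and its part in these values was not tested.

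A pair of probes read each of 6 members, and these pairs showed how far a subunit's value depended on the probe. The brighter probe stood for the gene above. For Psmb5 the dimmer probe gave 1.46, 1.43 and 1.17 on the arrays labelled KO and 1.63, 1.56 and 1.97 on those labelled WT, without overlap and with a difference of -0.37, against 0.11 for the brighter. WT replicate 3 was the highest array for the one probe and the lowest for the other. Psmc3 did the same, with differences of -0.24 for the dimmer and 0.27 for the brighter probe. The dimmer Psmc3 probe gave 3.06, 2.96 and 2.47 against 2.64, 3.07 and 3.49. For Psmc1 the dimmer probe followed the scan, at 1.59, 1.53, 1.61 and 1.55 on scan 1 and at 0.36 (KO replicate 3) and 0.39 (WT replicate 1) on scan 2. The brighter Psmc1 probe was higher on scan 2, by 0.36, where the dimmer was 1.19 lower, a difference of -1.19.

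The probes of Psma4 differed in sign as well, at 0.17 for the brighter and -0.13 for the dimmer, both with overlapping groups. Those of Psmc2 (0.17 and 0.11) and Psmd12 (0.04 and 0.21) had the same sign. When the probes of each gene were averaged, 0 members were called, and the difference of Psmb5 was -0.13. The remaining 26 members had 1 probe each, so no such comparison was possible for them. Where on the transcript the probes lie was not analysed here.

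**Figure D3:**
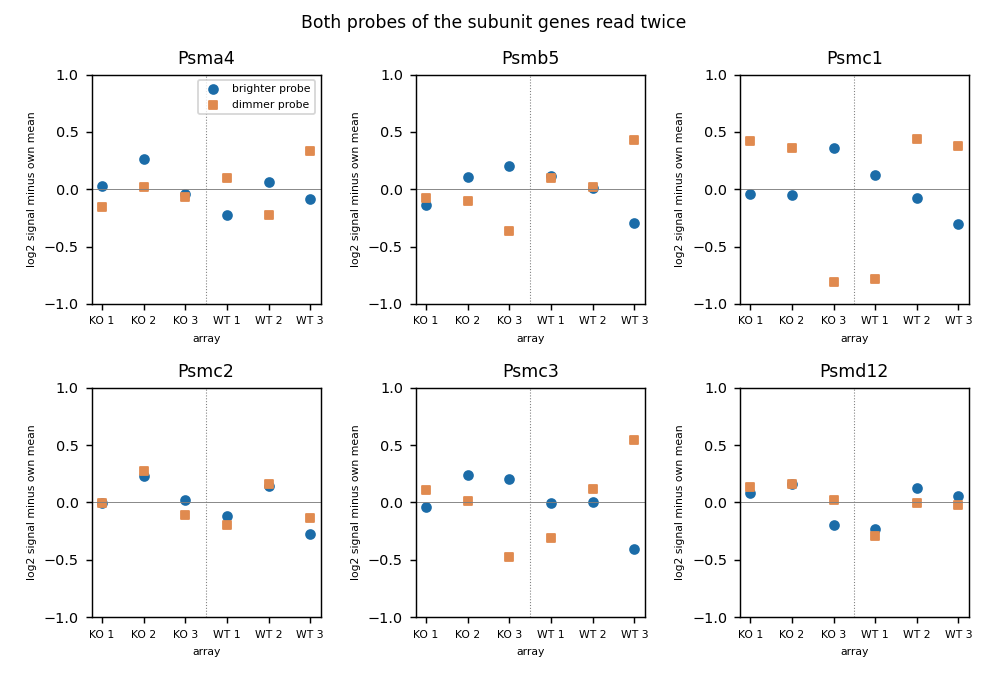
Signal of both probes of the 6 subunit genes that 2 probes read, each as the deviation from its own 6-array mean (log2) on the 6 arrays, with the brighter probe as circles and the dimmer as squares. The pair of Psmc2 runs together, those of Psmb5 and Psmc3 part on WT replicate 3 and KO replicate 3, and the dimmer Psmc1 probe is low on both arrays of scan 2.

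Promoter sequence was read for the sites through which the subunit genes are known to be raised together. RefSeq promoters of GRCm38.p6 matched 26 of the 32 members by gene name, with 28 entries, so some names had more than 1 entry. The window was the 250 bases before the start. The core of the antioxidant response element, TGACNNNGC on both strands, was present in 5 of 28 member promoters (17.9%) and in 10.2% of all 32851 promoters. The 5 were those of Psmb5, Psmb6, Psmc6, Psmd12 and Adrm1. The CCAAT box (CCAAT, both strands) was present in 39.3% of member promoters and 33.8% of all, and the GC box (GGGCGG, both strands) in 53.6% and 32.7%. Matches to different motifs overlapped in 0 of the 28 member promoters. A match is a description of letters and not a bound site. The following 4 promoters are printed 5′ to 3′ on the gene's strand with each match to TGACNNNGC in capitals. Psmb5 and Psmb6 are shown as catalytic subunits with a match, Psmd8 as the member with the smallest p, which had none, and Adrm1 as the member with the widest spread.
Psmb5, chr14:54617996-54618245, minus strand: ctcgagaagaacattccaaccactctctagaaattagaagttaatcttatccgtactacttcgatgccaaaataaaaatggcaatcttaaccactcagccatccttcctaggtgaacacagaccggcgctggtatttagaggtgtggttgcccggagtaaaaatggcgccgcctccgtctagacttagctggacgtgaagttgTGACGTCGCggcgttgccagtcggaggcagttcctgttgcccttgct
Psmb6, chr11:70525107-70525356, plus strand: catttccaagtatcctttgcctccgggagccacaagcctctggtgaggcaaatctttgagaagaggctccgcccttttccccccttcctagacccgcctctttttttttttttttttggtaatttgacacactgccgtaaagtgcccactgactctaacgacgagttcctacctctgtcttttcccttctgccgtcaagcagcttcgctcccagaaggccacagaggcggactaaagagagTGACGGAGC
Psmd8, chr7:29180674-29180923, minus strand: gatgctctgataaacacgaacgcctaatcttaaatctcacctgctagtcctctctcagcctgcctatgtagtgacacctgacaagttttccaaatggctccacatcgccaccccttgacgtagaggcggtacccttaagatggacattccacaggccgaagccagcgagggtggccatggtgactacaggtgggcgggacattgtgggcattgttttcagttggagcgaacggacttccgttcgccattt
Adrm1, chr2:180171338-180171587, plus strand: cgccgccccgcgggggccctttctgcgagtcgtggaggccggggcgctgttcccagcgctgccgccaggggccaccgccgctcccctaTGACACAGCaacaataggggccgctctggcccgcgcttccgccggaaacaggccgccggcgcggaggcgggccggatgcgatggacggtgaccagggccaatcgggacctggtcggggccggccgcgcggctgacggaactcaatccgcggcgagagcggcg
The 5 members with a match, Psmb5, Psmb6, Psmc6, Psmd12 and Adrm1, had differences of 0.11, 0.01, 0.21, 0.04 and 0.32. All 5 were positive in this scaling, with overlapping groups, and none passed. So were 21 of all 32 members and 11297 of the 21214 genes tested. The differences of Psmb5 and Psmb6 were negative with quantile normalization (-0.02 and -0.14). That of Psmb5 was -0.13 when its probes were averaged.

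Among the related lists the immunoproteasome and PA28 genes had the lowest median difference, -0.52, with 4 of 5 below without overlap, where 8.1% of all genes tested lay below in this way and 10.1% above. Psmb8, Psmb9 and Psmb10 replace Psmb5, Psmb6 and Psmb7 in the core of cells exposed to interferon, and Psme1 and Psme2 encode the PA28 activator. Psmb8 stood at -3.43, -3.37 and -2.49 on the arrays labelled KO and at -1.55, -1.89 and -1.60 on those labelled WT, without overlap, a difference of -1.41 ± 0.28 (SE, limma adjusted p = 0.182, and 0.0551 with scan as a block). It passed without KO replicate 3 (adjusted p = 0.0427, difference -1.72). With normexp correction the Psmb8 difference was smaller, -0.72 scaled to the 75th percentile and -0.86 with quantile normalization. Psmb9 gave -4.20, -4.31 and -3.19 against -2.66, -2.85 and -2.67, with a difference of -1.17 ± 0.30 (adjusted p = 0.334), which was -0.28 and -0.51 in those settings. Psme1 gave 1.62, 1.59 and 1.92 against 2.42, 2.04 and 2.24, with a difference of -0.52 ± 0.18 (adjusted p = 0.437). Neither overlapped, nor did Psmb10, at 0.41, 0.49 and 0.38 against 0.62, 1.09 and 0.51, with a difference of -0.31 ± 0.20 (adjusted p = 0.572), or -0.13 without WT replicate 2. Psme2 overlapped, at 4.13, 4.27 and 3.72 against 3.69, 4.39 and 4.02 (difference 0.01 ± 0.24, adjusted p = 0.991). A dimmer Psme2 probe gave 0.24, 0.13 and 0.34 against 0.54, 0.39 and 0.57, without overlap and with a difference of -0.26.

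The change in each immunoproteasome subunit relative to the constitutive one it replaces was computed within each array and set to 0 at the mean of the arrays labelled WT. Psmb8 relative to Psmb5 stood at -1.66, -1.85 and -1.06 on the arrays labelled KO and at -0.04, -0.27 and 0.31 on those labelled WT. The groups did not overlap, and their difference was -1.52 ± 0.29 (SE), with an exact two-sided permutation p of 0.1, the smallest that 3 arrays against 3 allow. This ratio used the brighter Psmb5 probe, whose own difference was 0.11. The dimmer Psmb5 probe differed by -0.37, so with it the groups would lie closer together. Psmb9 relative to Psmb6 gave -1.58, -1.69 and -0.27 against 0.22, -0.27 and 0.04. KO replicate 3 stood level with the lowest array labelled WT there, and the difference was -1.18 ± 0.48 (exact permutation p = 0.1). Psmb10 relative to Psmb7 gave -0.10, 0.13 and -0.15 against -0.14, 0.45 and -0.31, overlapping, with a difference of -0.04 ± 0.24 (exact permutation p = 0.9). Adjusted over the 3 pairs the exact p were 0.15, 0.15 and 0.9. Within scan 1 the differences were -1.78, -1.53 and -0.05, and within scan 2 -1.01, -0.49 and -0.01. With normexp they were -0.78, -0.20 and -0.10 scaled to the 75th percentile and -0.85, -0.37 and -0.08 with quantile normalization.

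Macrophages are known to express immunoproteasome subunits. Of 7 macrophage markers listed 6 were tested, all above background on all 6 arrays, and 5 had a negative difference. The lowest were Cx3cr1 at -1.58 ± 0.21 (SE, limma adjusted p = 0.0605, and 0.035 with scan as a block) and C1qa at -0.77 ± 0.21 (adjusted p = 0.352), both without overlap. Over all genes tested 8.1% lay below in this way. Adgre1 (-0.64), Csf1r (-0.11), Ptprc (-0.07) and C1qb (0.02) had overlapping groups. The summed level of the 6 markers, as linear signal relative to the array's 75th percentile, was between 4.72 and 5.2 on the arrays labelled KO and between 5.27 and 6.27 on those labelled WT. Most of this sum was Csf1r on every array. Csf1r stood at 1.94, 2.16 and 1.96 on the log2 scale against 2.12, 2.32 and 1.97. The summed level was at 0 on none of the 6 arrays, and the part of these markers in the immunoproteasome values was not tested.

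**Figure D4:**
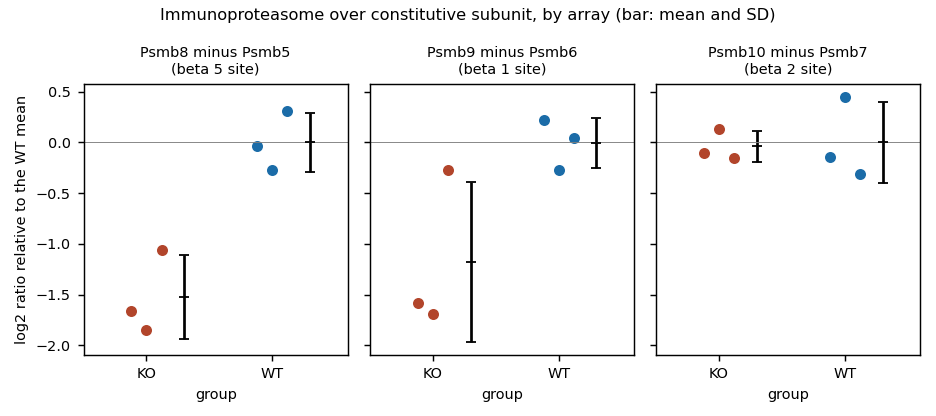
Signal of each immunoproteasome subunit relative to the constitutive subunit it replaces (log2 ratio, set to 0 at the mean of the arrays labelled WT), with 1 point per array and the mean and SD of 3 arrays beside them. The ratio at the beta 5 site lies between -1.85 and -1.06 on the arrays labelled KO and between -0.27 and 0.31 on those labelled WT, and the ratio at the beta 2 site overlaps.

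The remaining genes of the pathway gave no call either. Of 42 related genes listed 40 were tested, and limma called 0, with a lowest adjusted p of 0.182, where 3 were lower at an unadjusted p under 0.05 (Psmb8, Psmb9 and Psme1) and 0 higher, against 4.23% and 6.15% of all genes tested. The core variants of other tissues, Psma8 of testis and Psmb11 of thymus, were each above background on 1 of 6 arrays and were not tested. The 8 assembly chaperones, which build the core and the base, had a median of -0.01. Among them Psmd5 differed by -0.37 ± 0.25 (SE, adjusted p = 0.592) and Psmg2 by 0.25 ± 0.22 (adjusted p = 0.674). Psmd5 was at -0.18 without KO replicate 3 and -0.19 without WT replicate 3, and Psmg2 at 0.11 without KO replicate 2.

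The activators and the inhibitor Psmf1 (PI31) were Psmf1 at -0.31 ± 0.17 (SE, limma adjusted p = 0.533), Psme4 (PA200) at -0.28 ± 0.23 (adjusted p = 0.648, -0.11 without WT replicate 3) and Psme3 (PA28 gamma) at 0.82 ± 0.80. The groups of Psmf1 did not overlap, but its difference turned to 0.10 under normexp scaled to the 75th percentile. The 12 associated factors and ubiquitin shuttles had a median of 0.08, with Ecpas, a scaffold that tethers cap and core, at 0.60 ± 0.28 (adjusted p = 0.489, 0.32 without KO replicate 2) and the shuttle Ubqln2 at -0.30 ± 0.16 (adjusted p = 0.528).

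Regulators of subunit transcription included Nfe2l1, which stood at -3.90, -3.62 and -3.87 on the arrays labelled KO and at -4.13, -4.09 and -3.94 on those labelled WT. The groups of Nfe2l1 did not overlap, with a difference of 0.26 ± 0.17 (SE, limma adjusted p = 0.572), and those of Ngly1, the glycanase that its processing needs, did (0.29 ± 0.24, adjusted p = 0.654, 0.13 without WT replicate 3). Leaving out KO replicate 2 gave 0.17 for Nfe2l1, and quantile normalization after normexp gave 0.07. Ubiquitin and E1 genes had a median of 0.14, with the main activating enzyme Uba1 at -0.28 ± 0.20 (adjusted p = 0.598), -0.13 without KO replicate 2 and 0.07 when its probes were averaged.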

How the data were processed

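Kidney RNA of 6 neonates was read on Agilent arrays of 1 colour (Cy3), per the labels. The deposited files hold linear, background-subtracted spot intensity from Agilent Feature Extraction, not normalised between arrays. The file headers give its version as 11.0.1.1, while the submitters' processing notes give 9.1.

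Of 44397 spots per array 1377 controls and spots flagged as outliers were left out. The deposited intensity was log2-transformed, centred on the 75th percentile of its array, and spots of a probe averaged. A RefSeq table of GRCm38.p6 named 27234 of 39429 probes (69.1%). A probe entered if every array of 1 group or both gave it well above background and all 6 had a value, and the brightest stood for its gene. The headers name mm9, so the table gave names and chromosomes only. limma 3.58.1 in R 4.3.3 compared the groups, was tested on simulated data, and reported p-values adjusted over all genes. The series describes independent neonates, and p-values measure the spread between these 6 samples.

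The rule for named genes took, per class of members, the 2 smallest unadjusted p, the catalytic subunits, and per related list the 2 smallest p. A result that this rule names is not reported here. Members and lists were chosen with earlier results of these data known. Psmc5, Adrm1, Psmd11 and Psma3, the scan term and the probe pairs were singled out after their values were seen. Alternatives were other scalings, normexp with an offset of 50 on the median signals, filters, the mean of probes, an intensity trend, replicate and scan blocks, and leaving out arrays.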

Additional observations from a re-analysis of the deposited data

How the results depend on the processing

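No alternative gave a called core or cap member in limma. Members at an unadjusted p under 0.05 numbered 1 as reported, 2 with quantile normalization, with normexp and the 75th percentile and against WT replicate 3 alone, 3 with normexp and quantile normalization and with scan as a block, and 0 with no filter on dim probes, the replicate block or within scan 1. Leaving out single arrays gave 0 to 3. The core median of 0.07 was -0.04 with quantile normalization, with or without normexp, and 0.02 to 0.09 without single arrays. The cap median of 0.06 was -0.06 with quantile normalization, 0.03 with array median scaling, -0.02 and -0.08 with normexp and the 75th percentile or quantiles, -0.01 against WT replicate 3 alone, and 0.01 to 0.09 without single arrays. Related genes called numbered 0 to 1 without single arrays, the 1 being Psmb8 without KO replicate 3.

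Among all genes tested 17 were called. The count was 27 with normexp and the 75th percentile, 45 with an intensity trend and robust variance, and 62 with scan as a block. It was 8 with the mean of probes and 1 when all 6 arrays had to be above background. Without KO replicate 3 the count was 30, and without any other single array it was 0. It was 0 with normexp and quantiles, no filter, the replicate block, or WT replicate 3 alone, with 2207, 2052, 1608 and 2011 genes under an unadjusted p of 0.05 in limma. The deviations of same-numbered arrays from their group means correlated at -0.40, 0.48 and -0.60. Those of KO replicate 3 and WT replicate 1, the arrays of scan 2, correlated at 0.89. The scan thus weighs on these values, and they cannot show whether the replicate numbers pair the arrays. The replicate block moved the count from 17 to 0, and only number 2 correlated best with its own number.

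Signs turned for genes with small differences that did not pass. Psmb6 (0.01) was -0.14 with quantile normalization, -0.03 with array median scaling, -0.08 and -0.15 with normexp and the 75th percentile or quantiles, -0.03 within scan 2 and 0.00 against WT replicate 3 alone. Psme2 (0.01) was -0.12, -0.02, -0.08 and -0.14 in the same 4 scalings, -0.13 with the mean of probes and 0.00 within scan 1. Psmb5 (0.11) was -0.02 and -0.01 with quantiles without and with normexp and -0.13 with the mean of probes. Psmf1 (-0.31) was 0.10 under normexp scaled to the 75th percentile. After averaging probes, Psme4 (-0.28) was 0.05 and Uba1 (-0.28) 0.07. The ratio of Psmb10 to Psmb7 (-0.04) was 0.27 against WT replicate 3 alone and ranged from -0.19 to 0.19 without single arrays. Without single arrays Psmb5 ranged from -0.01 to 0.21, Psmb6 from -0.07 to 0.11 and Psme2 from -0.16 to 0.19. Beyond the scalings and settings themselves, the cause was not tested.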

Other observations

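Some proteasome genes outside the constitutive set also followed the scan. Psme3, the nuclear activator PA28 gamma, stood at 0.56 (KO replicate 3) and -0.40 (WT replicate 1) on scan 2 and between -2.99 and -1.50 on the 4 arrays of scan 1, a scan difference of 2.17 (limma adjusted p = 0.0112 for the scan term). The core assembly chaperones Psmg1 and Psmg4 went opposite ways, with scan differences of 0.69 (adjusted p = 0.0312) and -0.64 (adjusted p = 0.0349). The ubiquitin ligase gene Ube3c differed by 0.61 (adjusted p = 0.0387). These were the 4 of 40 related genes called by scan, 3 higher and 1 lower on scan 2, where 2.68% and 6.75% of all genes tested were called, and were chosen after their values were seen.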
